A study of Mus musculus with 4 samples.

Results

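The genes described here are Runx1, Runx2, Runx3 and Cbfb, which encode the mouse RUNX transcription factors and their shared partner subunit. They are 4 of the 21887 protein-coding genes of the annotation, and were taken by name, although earlier results of these data were known when they were proposed. The tissue was the ovary of CD1 mouse embryos at E14.5, and the method was ChIP-seq, which pulls down the DNA that a protein occupies with an antibody, here against FOXL2, and reads its sequence. FOXL2 is a DNA-binding protein of the forkhead family, made in granulosa cells and their precursors, which surround and support the oocytes. The series held 2 FOXL2 ChIP samples, each from a pool of 80 to 100 ovaries freed of the mesonephros, and 2 input samples of the same tissue taken without an antibody. The data are the coordinates (mm10) of 11438 FOXL2 peaks in 1 list that stands for the ChIP samples together. As the list holds neither a height or score nor values of the replicates, depth is unknown, no peak has a replicate error, and intervals below cover counting error only. Whole ovaries were used, so the cell type in which a peak arose is not known, and with no expression values the labelled tissue could not be checked against its markers. Every peak centre inside the 4 genes or within 200 kb of either end was taken, which gave 18 peaks. Of these, 11 (61.1%) lay within 1 kb of a listed transcription start of any gene. Among the 11085 peaks on chromosomes with listed starts, the share was 62.9%.

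RUNX factors bind DNA through the Runt domain, and CBFB, the protein made from Cbfb, binds no DNA itself but raises the affinity and stability of the RUNX subunit. RUNX1 is needed for the first blood stem cells, RUNX2 for bone-forming osteoblasts, and RUNX3 for sensory neurons and cytotoxic T cells. In the mouse fetal ovary Runx1 is known as a gene of the pregranulosa cells, the supporting cells in which FOXL2 is also made. Mammalian Runx genes are transcribed from a distal promoter, whose transcripts carry an additional first exon, and from a proximal promoter further inside the gene.

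FOXL2 peaks lay in 3 of the 4 genes. Runx1 held 2 peaks, Runx2 held 4, Runx3 held none and Cbfb held 1, while 36.2% of all protein-coding genes held a peak, 4.50% held 2 or more and 0.178% held 4 or more. The place of the peaks relative to gene ends and listed starts differed among the genes. Runx1 had a peak at its inner transcription start and another near its 3′ end. Runx2 had 3 peaks deep within the gene and 1 at the start of the overlapping gene Supt3. Cbfb had its peak just downstream of its only listed start. No proximal start of Runx2 is listed, so whether Runx2 differs from Runx1 in having no peak at such a start is not known here. Of the 6 listed starts of the 4 genes, 2 had a peak within 1 kb, against 36.8% of 21263 listed starts of protein-coding genes.

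**Figure D1:**
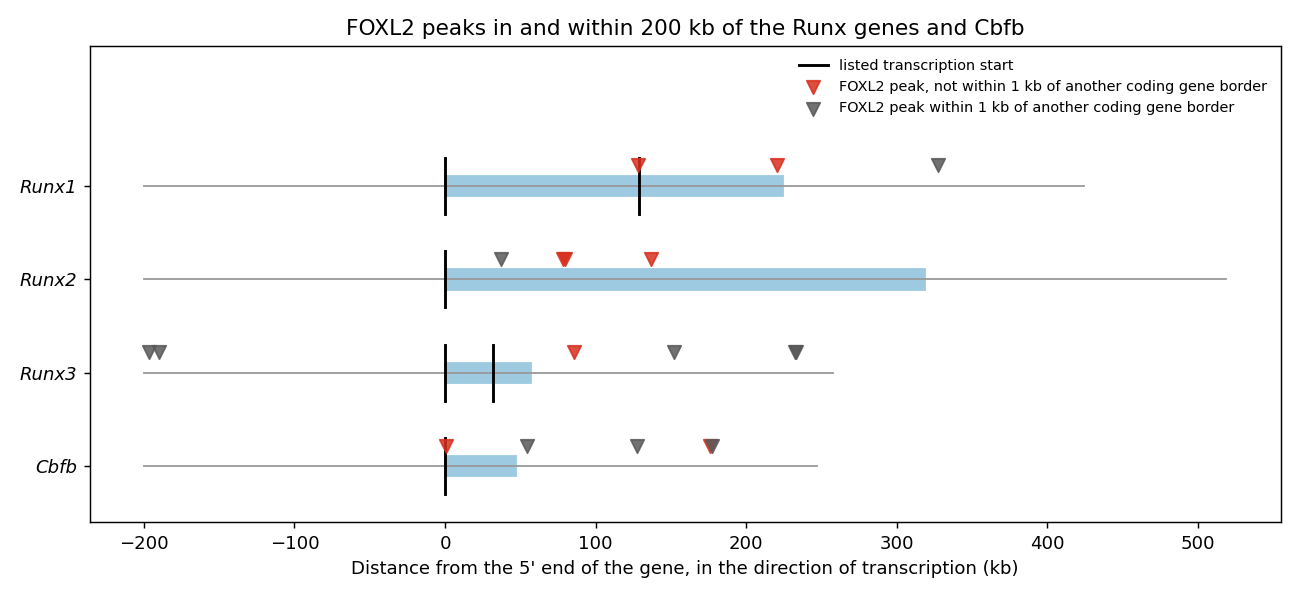
Each row is a gene drawn from its 5′ end in the direction of transcription, on a scale of kb, with the gene as a blue bar, the 200 kb flanks as a grey line, listed starts as black ticks and FOXL2 peaks as triangles. Red triangles are peaks that do not lie within 1 kb of the border of another protein-coding gene, and 8 of the 18 peaks are red.

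The DNA at the inner start of Runx1 is shown first, because of the 5 listed starts of Runx genes, which include no proximal start of Runx2, it alone had a peak within 1 kb. The sequence is that of RefSeq on GRCm38.p6, the assembly that mm10 denotes, at chr16:92697280-92697579 on the minus strand, from 250 bases before the start to 50 bases from the start on. Capitals mark the 115 bases that lie inside the FOXL2 peak.
Runx1 second start: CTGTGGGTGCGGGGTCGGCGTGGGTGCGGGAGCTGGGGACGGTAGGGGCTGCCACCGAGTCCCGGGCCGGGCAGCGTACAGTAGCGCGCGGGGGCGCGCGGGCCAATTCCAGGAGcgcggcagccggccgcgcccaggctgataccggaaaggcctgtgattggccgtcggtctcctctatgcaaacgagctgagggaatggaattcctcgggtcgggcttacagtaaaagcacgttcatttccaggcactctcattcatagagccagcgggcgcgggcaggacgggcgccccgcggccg
For comparison, the corresponding window of the inner start of Runx3, which had no peak, lies at chr4:135152295-135152594 on the plus strand, and capitals mark matches to the GC box GGGCGG on either strand.
Runx3 second start: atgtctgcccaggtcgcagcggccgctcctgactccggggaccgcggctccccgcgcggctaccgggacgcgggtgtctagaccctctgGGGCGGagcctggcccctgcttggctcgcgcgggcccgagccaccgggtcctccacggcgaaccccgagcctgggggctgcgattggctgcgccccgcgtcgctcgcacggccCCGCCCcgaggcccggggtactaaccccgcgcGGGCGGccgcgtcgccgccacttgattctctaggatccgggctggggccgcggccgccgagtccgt
The window of the Cbfb start, whose peak began 259 bases downstream of the start and thus outside the window, lies at chr8:105170424-105170723 on the plus strand, again with GC boxes in capitals.
Cbfb start: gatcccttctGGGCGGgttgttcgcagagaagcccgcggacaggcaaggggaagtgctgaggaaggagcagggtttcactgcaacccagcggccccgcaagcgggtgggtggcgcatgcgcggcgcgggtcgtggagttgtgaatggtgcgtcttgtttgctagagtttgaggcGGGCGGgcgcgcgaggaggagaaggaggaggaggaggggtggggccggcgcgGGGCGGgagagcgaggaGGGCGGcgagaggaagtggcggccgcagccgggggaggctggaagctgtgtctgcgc
All 3 windows are rich in G and C, at 69% for Runx1, 77.3% for Runx3 and 69.7% for Cbfb.

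The first starts of the 3 Runx genes look different. A stretch of 18 bases is common to them, and it is shown because it holds the RUNX core TGTGGT 2 times, read on the opposite strand as ACCACA. Capitals mark the stretch in 100 bases of each window, at chr16:92826025-92826124 on the minus strand for Runx1, chr17:44814578-44814677 on the minus strand for Runx2 and chr4:135120469-135120568 on the plus strand for Runx3.
Runx1 first start: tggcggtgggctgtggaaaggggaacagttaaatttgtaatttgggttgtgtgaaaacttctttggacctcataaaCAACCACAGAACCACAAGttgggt
Runx2 first start: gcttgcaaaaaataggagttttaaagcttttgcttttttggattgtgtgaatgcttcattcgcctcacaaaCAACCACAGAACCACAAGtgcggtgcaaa
Runx3 first start: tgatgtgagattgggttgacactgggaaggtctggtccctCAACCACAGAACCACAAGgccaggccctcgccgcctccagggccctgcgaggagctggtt
Among the 21263 promoter windows, 3 held this stretch, those of Runx1, Runx2 and Runx3. It began 27 bases after the start in Runx1 and 22 bases after it in Runx2, and 136 bases before it in Runx3. None of these 3 starts had a FOXL2 peak within 1 kb, the nearest being 128 kb away for Runx1, 37.1 kb for Runx2 and 85.8 kb for Runx3.

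Runx1 spans 225 kb of chromosome 16, from 92601466 to 92826074 on the minus strand, and has 2 listed starts 129 kb apart. The peak at chr16:92697465-92697764 was centred 285 bp upstream of the second start. Measured by the ends of the gene alone it would pass for a peak deep in the gene, since it lay 128 kb from the 5′ end and 96.1 kb from the 3′ end. On chromosomes with listed starts, 2432 FOXL2 peaks lay inside protein-coding genes with no border of such a gene within 1 kb. Of these, 42.1% likewise lay within 1 kb of a listed start. The second Runx1 peak, at chr16:92605755-92606054, was centred 4438 bp inside the 3′ end and 91.4 kb downstream of the second start, at 98.0% of the gene's length. No start in the promoter table lay within 1 kb of it, the nearest being that of the noncoding gene Gm30224 at 9756 bp. Neither end of Runx1 had a peak within 1 kb, while 35.3% of protein-coding genes had one at an end.

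The distance of the Runx1 peak from its start was on the less used side. Of 6632 peaks within 1 kb of the start of a protein-coding gene, 23.6% were centred upstream and the median centre lay 136 bp downstream. Centres as far upstream as that of Runx1 or further made up 7.60% of them. The Cbfb peak, 408 bp downstream, lay on the other side of the median, and 12.3% of the peaks lay as far downstream or further.

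**Figure D2:**
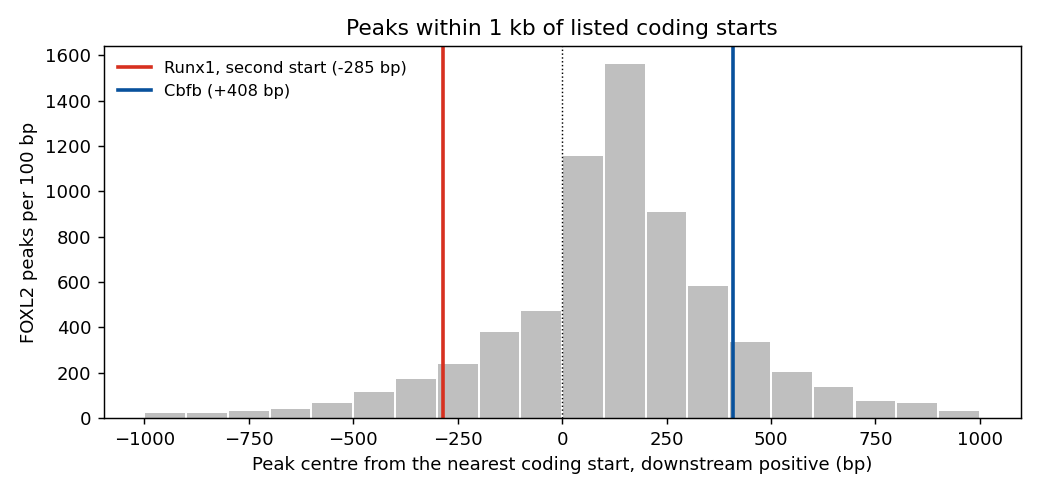
Bars count FOXL2 peak centres per 100 bp around the nearest listed start of a protein-coding gene, with upstream to the left. The fullest bar, from 100 to 200 bp downstream, holds 1563 peaks, and the lines mark the peaks of the second Runx1 start and of Cbfb on either side of it.

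Runx2, the longest of the 4 genes at 319 kb, lies on chromosome 17 from 44495987 to 44814797 on the minus strand. Its 4 peaks lay 37.2, 78.4, 79.4 and 137 kb from the 5′ end, all in the 5′ part of the gene, and the 182 kb up to the 3′ end held none. The peak at chr17:44777415-44777714 lay inside Runx2 and also 398 bp downstream of the start of Supt3, which encodes a subunit of the SAGA transcription coactivator complex. Supt3 runs in the opposite direction and starts within Runx2, so this peak cannot be assigned to either gene. The other 3 peaks lay in Runx2 alone. Of these, chr17:44735242-44735541 and chr17:44736252-44736551 formed a pair with centres 1010 bp apart, and 10.5% of all peaks had a neighbour as close as that. The remaining one, chr17:44677967-44678266, lay 57.3 kb further downstream. The nearest protein-coding border for each of the 3 was that of Supt3, at 40.7, 41.7 and 99.0 kb, and no listed start lay within 1 kb of them. The promoter table lists 1 start for Runx2, the first, so the place of these peaks relative to a proximal start of Runx2 was not analysed here.

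Runx3 lies on chromosome 4 from 135120645 to 135177990 on the plus strand, with 2 listed starts 31.9 kb apart. None of the 6 peaks of its surroundings lay in the gene. The nearest, chr4:135206253-135206552, was 28.4 kb beyond the 3′ end, between Runx3 and Clic4 and 7567 bp from the border of Clic4, which encodes an intracellular chloride channel protein. A nearest peak at that distance or further was found for 39.9% of protein-coding genes. The other 5 peaks lay within 1 kb of the borders of other genes, namely Clic4, Srrm1 with 2 peaks, Rsrp1 and Syf2. Rsrp1 and Syf2 lie upstream of Runx3, at 197 and 190 kb, and Srrm1 and Syf2 encode proteins of RNA splicing.

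Cbfb lies on chromosome 8 from 105170674 to 105217989 on the plus strand and has 1 listed start. Its peak, chr8:105170933-105171232, was centred 408 bp inside the 5′ end. The next peak, 7284 bp beyond the 3′ end, lay 127 bp inside D230025D16Rik. Another lay 299 bp inside E2f4, a cell cycle transcription factor gene, and a pair with centres 1059 bp apart lay 253 and 1312 bp inside Fhod1, which encodes a regulator of the actin cytoskeleton. Cbfb was the only one of the 4 genes with a peak within 1 kb of its own 5′ end, and none had a peak within 1 kb of its own 3′ end.

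Within 200 kb, peaks numbered 3 for Runx1, 4 for Runx2, 6 for Runx3 and 5 for Cbfb, and 83.9% of all protein-coding genes had at least 1 peak in such a window. Per 100 kb of window, gene included, Runx1 had 0.480 peaks (exact Poisson 95% interval 0.099 to 1.40), Runx2 0.556 (0.152 to 1.42), Runx3 1.31 (0.481 to 2.86) and Cbfb 1.12 (0.363 to 2.61). The median over protein-coding genes was 0.768, with quartiles of 0.249 and 1.40, so all 4 lay between the quartiles. These counts included peaks of neighbouring genes. The windows of Runx1 and Runx2 held 2 other protein-coding genes each, that of Runx3 held 5 and that of Cbfb held 21. Once peaks within 1 kb of another gene's border were set aside, 2 peaks remained for Runx1, 3 for Runx2, 1 for Runx3 and 2 for Cbfb. Of the 2 for Cbfb, 1 still lay in another gene, 1312 bp inside Fhod1 and 129 kb beyond the 3′ end of Cbfb. At the edge of the window, the outermost peak counted for Runx3 lay 197 kb from the gene and the next one 206 kb away. For Runx1 the corresponding distances were 103 and 300 kb, and for Cbfb 130 and 279 kb. Runx2 had no peak in its flanks at all up to 390 kb.

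The peak density around Runx1 was below that around each of the other 3 genes, but counting error was larger than these differences. The ratio of Runx1 to Runx2 density in the 200 kb windows was 0.863, with an exact conditional 95% interval of 0.126 to 5.10. The ratio of Runx1 to Runx3 density was 0.366 (0.0592 to 1.71), and that of Runx1 to Cbfb was 0.430 (0.0667 to 2.21). Inside the genes, Runx1 had 0.890 peaks per 100 kb against 1.25 in Runx2, a ratio of 0.710 (0.0642 to 4.95). All these intervals include equal density and are wide, so a difference was not detectable with so few peaks and likeness was not shown either.

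Genes of similar length to Runx2 held a mean of 0.963 peaks and those of similar length to Cbfb 0.521, so each gene was also set beside the protein-coding genes whose length was within 20% of its own. Of 483 genes of similar length to Runx1, 95 (19.7%, exact 95% interval 16.2 to 23.5%) held as many peaks as Runx1 or more. For Runx2 the count was 8 of 320 genes (2.50%, 1.09 to 4.87%). The 4 peaks of Runx2 include the one at the start of Supt3, which cannot be assigned to either gene. They also include the pair with centres 1010 bp apart, counted as 2 peaks. When only deep peaks were considered, meaning those inside a gene with no protein-coding border within 1 kb, Runx1 had 2 and Runx2 had 3. The 2 of Runx1 include the peak 285 bp upstream of its second start, and 1 remained when listed starts also counted as borders. The 3 of Runx2 could not be judged against a proximal start, as none is listed. A deep peak was found in 9.75% of protein-coding genes, 2 or more in 1.58% and 3 or more in 0.302%. Among genes of similar length, 9.52% had at least the 2 of Runx1 and 3.44% at least the 3 of Runx2. No peak was found in 804 of 1669 genes of similar length to Runx3 (48.2%), which is also the state of Runx3, and 47.7% of 1873 genes of similar length to Cbfb had at least 1.

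**Figure D3:**
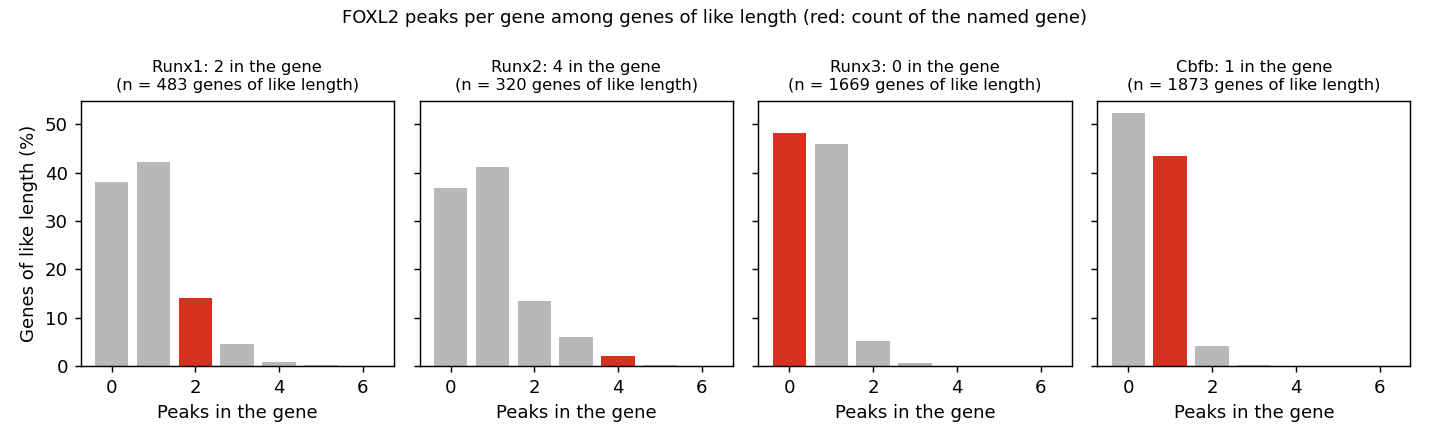
Each panel shows, in percent, how many peaks lay in protein-coding genes whose length was within 20% of the named gene's, with the bar at the named gene's own count in red. The red bar lies at the sparse right of the panel for Runx2, with 4 peaks, and at a tall bar for Runx3 and Cbfb. The 4 peaks of Runx2 include the one at the start of Supt3.

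Genes with the same peak pattern as Runx1 were sought among the 483 of similar length, by the sum of differences in 4 counts, namely peaks within 1 kb of an own end, peaks deep inside, other peaks inside and peaks outside within 200 kb. Sash1, Gas7, Phf14 and Carmil1 matched all 4 counts, and Rapgef2 came next with a sum of 1. Of the 2 internal peaks, Sash1 like Runx1 had 1 within 1 kb of a listed start, Phf14 had 2, and Gas7 and Carmil1 had none. The likeness rests on 1 peak list and small counts.

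The listed starts of the 4 genes fell into a CpG-poor and a CpG-rich class. CpG content was expressed as the number of CG dinucleotides divided by the number that the C and G content of the window would give. It was 0.137 at the first start of Runx1, 0.143 at that of Runx2 and 0.264 at the first start of Runx3. It was 1.01 at the second start of Runx1, 1.01 at the second start of Runx3 and 0.987 at Cbfb. A peak lay within 1 kb of 2 of the 3 CpG-rich starts, those of Runx1 and Cbfb, and of none of the 3 CpG-poor ones. The same gradient ran through all genes. A peak lay at 0.958% of starts with a value under 0.2 (exact 95% interval 0.700 to 1.28%), at 8.0% of starts from 0.2 to 0.4, at 70.0% from 0.8 to 1.0 and at 77.2% (75.2 to 79.2%) from 1.0 on. The second start of Runx3 was thus among the smaller share of very CpG-rich starts without a peak.

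**Figure D4:**
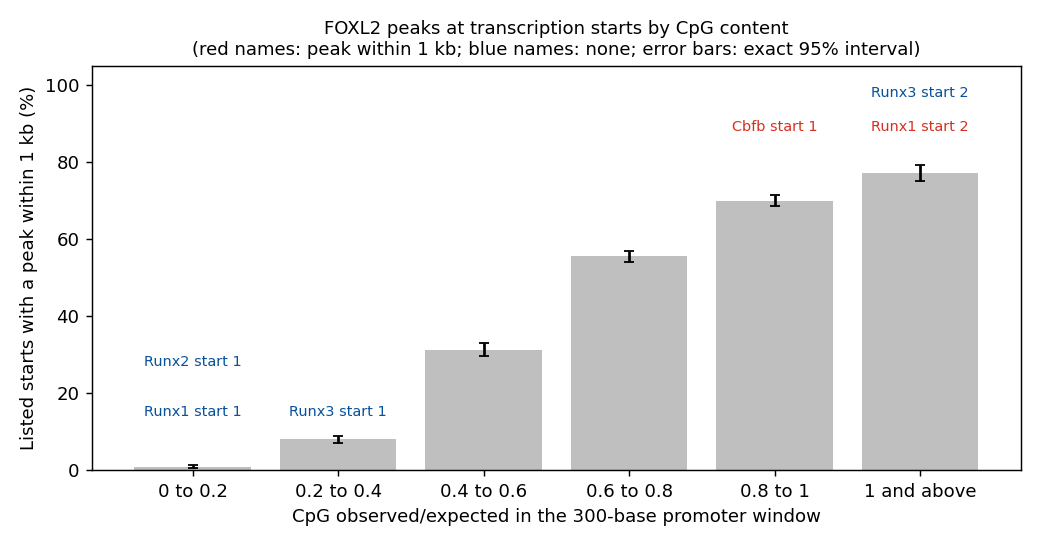
Bars give the percentage of listed starts of protein-coding genes with a FOXL2 peak within 1 kb, by CpG observed over expected, with exact 95% binomial intervals. Names place the 6 starts of the Runx genes and Cbfb in their bins, in red for a peak and in blue for none.

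Runx1 and Runx3 share the layout of a CpG-poor first and a CpG-rich last start. Runx2 has only 1 listed start, so its layout could not be judged. After the values were seen, all protein-coding genes with such a layout were collected, with a value under 0.4 at the first start, at least 0.8 at the last, and 20 kb or more between them. There were 16, of which 11 (68.8%), Runx1 among them, had a peak at the last start alone. The other 5 (31.2%), Abcg2, Cbfa2t3, Egf, Fhl2 and Runx3, had a peak at neither. None of the 16 had a peak at the first start alone or at both. The 16 were picked by CpG content, and the shares over all starts differ in the same direction. As given above, a peak lay at 0.958% of starts under 0.2 and 8.0% from 0.2 to 0.4. It lay at 70.0% from 0.8 to 1.0 and 77.2% from 1.0 on. Over all 580 genes with listed starts at least 20 kb apart, whatever their CpG content, 7.93% had a peak at the last start alone, 36.4% at the first alone, 7.93% at both and 47.8% at neither.

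Motif matches in the promoter windows were sparse. The forkhead core TGTTTAC and the sequence GTCAAGG, a FOXL2-type element, were each searched on both strands and had no match in any of the 6 windows of the 4 genes. They occurred in 3.01% and 3.09% of all promoter windows. The shorter TGTTTA, contained in the first of these and searched after the values were seen, matched once in the first window of Runx1, 23 bases after the start, and is found in 11.5% of windows. The RUNX core TGTGGT matched 2 times at the first start of Runx1, 3 times at that of Runx2 and 2 times at the first start of Runx3, with none at the second starts or at Cbfb. It occurred in 15.0% of windows, namely 9.90% of those with a peak and 17.9% of those without one. The GC box matched 3 times at the second start of Runx3 and 4 times at Cbfb, with no match in either window of Runx1. It was found in 71.5% of windows with a peak and 31.5% without one. These matches describe letters in 300-base windows, not sites of binding. Among the 6 windows, only that of the second Runx1 start overlapped a peak, by 115 bases, and the Cbfb peak lay outside its window. For the first Runx1 start, the Runx2 start and both Runx3 starts, the nearest peak lay 37.1 to 128 kb away.

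Genes that work with RUNX factors were counted from lists chosen with earlier results of these data known. A gene was counted when a peak centre lay in it or within 10 kb of either end. By that measure Runx1, Runx2 and Cbfb were occupied and Runx3 was not, against 49.6% of protein-coding genes. Of 24 RUNX cofactors and partners, 18 were occupied (75%, exact 95% interval 53.3 to 90.2%), with a median of 2 peaks against 0 over all genes. Their median length was 73.4 kb against 17.2 kb for all genes. No share over genes of similar length was computed for the list, so the part of gene length in the 75% was not tested. For 17 of the 18 at least 1 of the peaks lay nearest to the gene's own border. The share over all occupied genes is not given here, so this count cannot be read as particular to the list. Hipk2, a kinase that phosphorylates RUNX1, had 3 peaks, of which the nearest to an end lay at 304 bp. Tle4, a Groucho-type corepressor recruited by RUNX factors, and the histone acetyltransferase gene Kat6b also had 3, with centres 131 and 189 bp from a listed start. Yap1, a Hippo pathway coactivator, had a peak 81 bp from its start and another 1145 bp from an end. Kat6a, whose product is a histone acetyltransferase and a coactivator of RUNX1, had peaks 159 and 775 bp from an end, each measured to the nearer end. Of the 2 peaks counted for the histone deacetylase gene Hdac1, 1 lay 35 bp outside it and the other at Marcksl1. The unoccupied members were Cbfa2t3, Smad3, Stub1, Tle2, Tle3 and Tle5, so that Tle1 and Tle4 were occupied and the other 3 Tle genes of the list were not.

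Genes known as RUNX targets in blood and bone were occupied at lower shares. The list of 15 blood targets of RUNX1 and RUNX3 also held Ntrk3, a receptor gene of sensory neurons that was not occupied. Of the 15 genes, 5 were occupied (33.3%, 11.8 to 61.6%). For 3 of them a peak was nearest to the gene's own border, again without a share over all occupied genes beside it. Myb, a transcription factor gene of blood progenitors, had a peak 117 bp from its start and another 1709 bp from an end. Spi1, which encodes the myeloid factor PU.1, had a peak 361 bp from an end, and Tal1, a factor of early blood formation, had a peak 6950 bp from an end. The peaks counted for the integrin genes Itga2b and Itgae lay at the borders of Fam171a2 and Haspin. Of 12 bone and cartilage targets of RUNX2, 3 were occupied (25%, 5.49 to 57.2%). Sp7, the osteoblast factor osterix, had a peak 775 bp from an end and another at Aaas. Vegfa, a growth factor gene of blood vessels, had a peak 1146 bp from its start. Both of these intervals include the 49.6% of all genes. Within 50 kb, 13 of the 15 blood targets and 8 of the 12 bone targets were occupied, against 67.5% of all genes, so the shares of the blood list lay below all genes at 10 kb and above them at 50 kb. The median length was 16.0 kb in the blood list and 11.5 kb in the bone list, shorter than for cofactors, and the part of gene length in these shares was not tested.

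**Figure D5:**
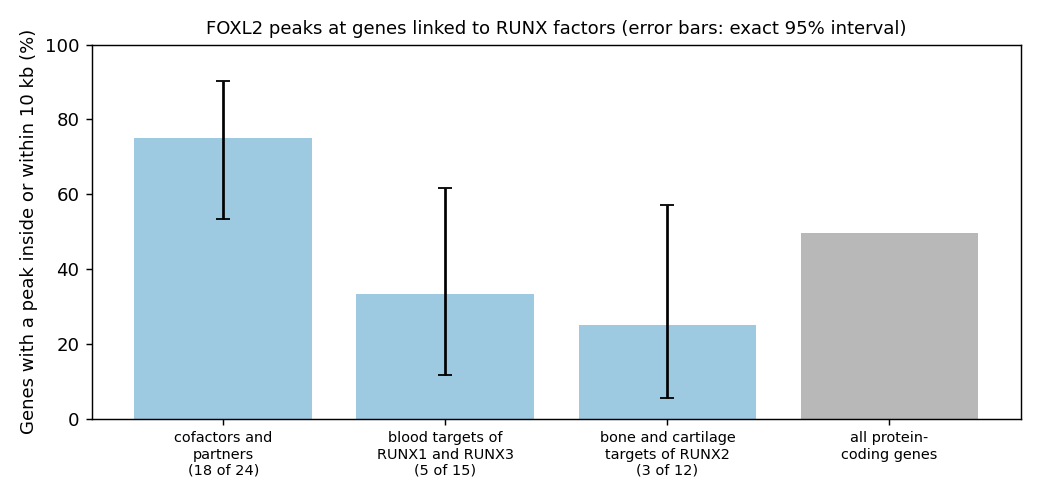
Bars show the percentage of genes with a FOXL2 peak inside or within 10 kb in 3 lists of genes linked to RUNX factors and, at the right, in all protein-coding genes, with exact 95% binomial intervals for the lists. The cofactor bar stands at 75%, above the 49.6% of all genes, and the blood and bone bars at 33.3% and 25% have intervals that span it. Gene length was not taken into account.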

How the data were processed

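The file deposited by the authors lists the borders of 11438 peaks on mm10, without scores. Per the submitters' processing notes, Bowtie 1.2, Picard 1.110, bedtools 2.24.0 and HOMER 4.9 were used. What each tool did, which threshold defined a peak and how samples were pooled is not stated in the labels. The threshold sets every count, and weaker binding may be missing from the list. Every peak is 300 bp wide, and 11435 lie on chromosomes 1 to 19, X and Y.

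Starts were converted to 1-based positions and peak centres placed against RefSeq genes of GRCm38.p6, with 21887 protein-coding genes. Transcription starts and strands came from RefSeq promoter windows, which gave 21263 starts for 17492 of these genes, and starts on chromosome 18 were not used here. All 4 genes described had a listed start, and all 51 list genes matched. Intervals are exact, at 95%, and no p-value is given because the single list has no replicate values. Calculations used Python 3.11.15 and scipy 1.17.1, and the counting was tested on simulated data. The genes and lists were chosen with earlier results of these data known. Named genes were the 4 genes, those bordering their peaks, up to 6 occupied genes a list by peak number and distance (1 of these is not reported here), and the 5 most like Runx1. Other genes named, such as unoccupied list members and genes with the start layout of Runx1, were chosen after their values were seen. Alternatives varied the window, the border distance, the length range, the peak point and the genes that give borders.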

Additional observations from a re-analysis of the deposited data

How the results depend on the processing

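Of 70 values recomputed under alternatives, 58 stayed close and 12 did not. A count stayed close within 1.5 times the value given, a share within its interval, and a ratio within its interval and on the same side of 1. The count of peaks around the genes followed the window. With 500 kb it was 5 for Runx1, 13 for Runx3 and 10 for Cbfb, and with 100 kb it was 2 for Runx3 and 3 for Cbfb. The ratio of Runx1 to Runx2 density turned to 1.08 with 500 kb. The 2 internal Runx1 peaks became 1 deep peak when borders reached 5 kb, and 1 when listed starts, an alternative chosen after seeing the data, also counted as borders. With genes of all kinds giving borders, 1 Runx1 peak was nearest to the gene itself. Cbfb had 2 peaks when extended by 10 kb. Within 50 kb, 23 of 24 cofactors, 13 of 15 blood targets and 8 of 12 bone targets were occupied, against 67.5% of all protein-coding genes. A larger window takes in more sequence, and a wider border leaves fewer deep peaks, by construction. A stricter peak threshold was not run because the list has no score, and the depth behind the peaks is unknown. The ratio of Runx1 to Runx3 inside the genes has no value because Runx3 holds no peak, and the planned comparison of protein sequences was not run. No paired analysis was possible because the deposited list gives no values per replicate.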
